A study of Mus musculus with 9 samples.

Results

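Aged and young follicular (FO) B cells were compared by RNA-seq, with the 3 libraries of FO B cells from 50-week-old mice set against the 3 from 8-week-old mice. These are 6 of the 9 libraries of the series. The remaining 3, of age-associated B cells (ABCs) of 50-week-old mice, entered no test here, and their levels are given beside a few genes as a description. Of 24346 gene symbols in the files, the 10122 that averaged 1 FPKM or more in the 6 FO B libraries were tested.

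All mice were wild-type C57BL/6, untreated as far as the labels and methods state, and no transgene or deletion is named for either group. Spleen cells were enriched for B cells on magnetic beads and sorted, FO B cells as B220hiCD43-CD23+CD21lo and ABCs as B220hiCD43-CD23-CD21loCD11b+CD11c+. The groups are named FO B (Young), FO B (Aged) and ABCs (Aged), and mice are named as the replicates in the study. The sex of the mice is not given in the labels. The Y-linked genes Ddx3y, Eif2s3y, Kdm5d and Uty were at 0 FPKM in all 6 FO B libraries.

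FO B cells are the recirculating, resting majority of mature B cells, which fill the follicles of the spleen and lymph nodes and respond to antigen with T cell help. Type I interferons act on them through a complex that holds STAT2 and IRF9 and binds the interferon-stimulated response element (ISRE) of antiviral genes. Interferon-gamma acts mainly through the gamma-activated site (GAS) and induces IRF1, guanylate-binding proteins and antigen presentation genes. Suppressors of cytokine signalling (SOCS) are induced by the same STAT pathways and inhibit them.

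FPKM is a count of fragments scaled to the length of the transcript and to the mapped reads of the library. The deposited files hold no counts, so the depth was estimated from the FPKM value of 1 read, which gave approximately 8250000 to 8350000 mapped reads in FO B (Young) and 7640000 to 9290000 in FO B (Aged). Differences are on the scale of log2(FPKM + 1), aged minus young, and were tested with limma across the 10122 genes with Benjamini-Hochberg adjustment (FDR). This scale understates the change of genes at low levels. A gene is called at an FDR under 0.05, and rose and fell are used of called genes alone. The gene lists were chosen with earlier results of these data known, so their counts are descriptions and no independent test. The labels do not tie libraries to single mice, so the p-values measure the spread between these libraries.

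Markers of B cells, of the gate and of other cells were read first. Ms4a1, which encodes the B cell marker CD20, was at 1143, 1152 and 1073 FPKM in FO B (Young) and at 1236, 1156 and 1175 FPKM in FO B (Aged), and the groups did not overlap although the difference was small (log2 fold change 0.08, limma FDR = 0.575). Cr2, which encodes CD21, was between 140.0 and 157.9 FPKM in young and between 127.4 and 166.3 FPKM in aged libraries, with overlap. Of 18 B lineage and follicular genes tested, 0 passed the FDR. At an unadjusted p under 0.05, 2 were higher and 2 lower, against 6.96% and 5.87% of all genes. Their median log2 fold change was 0.02, against 0.0018 over all genes. Ighm and Ighd were not analysed here. Among genes of other cells, summed T cell markers were at 0.981 to 2.28 FPKM in young and 1.44 to 2.98 FPKM in aged libraries, with Cd3e at 0 in all 6, and summed macrophage and monocyte markers at 13.7 to 30.4 and 11.8 to 19.6 FPKM. Summed neutrophil markers were at 2.64 to 11.6 FPKM in young and 4.23 to 28.2 FPKM in aged libraries, with Mpo and Elane at 0 in all 6, and summed NK cell markers at 1.37 to 3.73 and 0.830 to 1.71 FPKM.

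Few genes passed the FDR between the 2 ages. In FO B (Aged), 35 genes rose, 0.346% of those tested, and 12 fell, 0.119%, and for all 47 the 3 aged libraries lay on one side of the 3 young ones. The median absolute log2 fold change of the 47 was 0.99, whereas 96.3% of all genes differed by under 0.5 in either direction. Without adjustment, 704 genes were higher (6.96%) and 594 lower (5.87%) at p under 0.05. The 3 aged values lay above the 3 young ones in 976 genes (9.64%) and below them in 907 (8.96%). Called genes included a chemokine receptor, a cytokine signalling inhibitor, a nuclear hormone receptor and protease inhibitors on the higher side, and the interferon-stimulated gene Mx1 and the gate marker CD23 on the lower side.

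**Figure D1:**
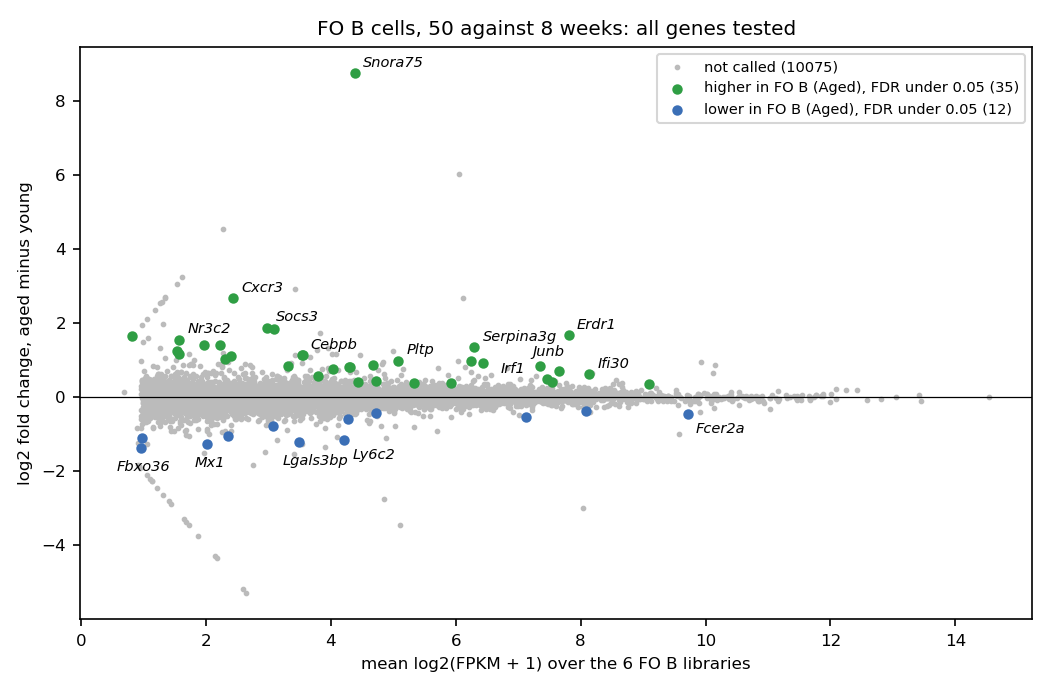
Each point is 1 of 10122 genes, with the mean log2(FPKM + 1) over the 6 FO B libraries on the x axis and the log2 fold change, aged minus young, on the y axis. The 35 genes higher and 12 lower at a limma FDR under 0.05 are coloured, with Cxcr3 at 2.68 and Socs3 at 1.88 near the top and Fbxo36 at -1.37 at the bottom of the called genes, and Snora75 stands apart, a small nucleolar RNA gene with 6 reads in all aged libraries together.

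Cxcr3, the receptor through which lymphocytes follow the interferon-induced chemokines CXCL9 and CXCL10, was at 0.966, 0.814 and 1.70 FPKM in the 3 young and at 11.4, 20.8 and 8.29 FPKM in the 3 aged libraries. No aged value reached down to a young one, and the aged libraries differed among themselves by more than the young ones. Cxcr3 rose by 2.68 (SE 0.30, limma FDR = 0.00872), a ratio of means of 11.7, on 43 reads in the young and 521 in the aged libraries together. It lies on the minus strand of the X chromosome (chrX:101731535-101734269, GRCm38) with 2 exons. Its FDR was 0.0778 without young replicate 1, 0.0628 without young replicate 2 and 0.051 without aged replicate 1. In ABCs (Aged), Cxcr3 was at 140.0, 157.3 and 12.8 FPKM. Of 12 chemokine receptor genes tested, Cxcr3 alone was called. Cxcr4, the receptor for CXCL12, was at 5.55, 6.11 and 7.91 FPKM in young and 10.5, 16.02 and 11.4 FPKM in aged libraries, without overlap (log2 fold change 0.85, limma FDR = 0.103), whereas the log2 fold changes of the follicle-homing receptor Cxcr5 and of Ccr7 were -0.14 (limma FDR = 0.425) and 0.14 (limma FDR = 0.626).

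Tbx21, which encodes T-bet, a transcription factor often present in ABCs that activates Cxcr3 in lymphocytes, was at 2.88, 1.94 and 2.90 FPKM in young and 7.45, 8.72 and 4.75 FPKM in aged FO B libraries. The groups did not overlap, and the difference of 1.14 did not pass the threshold (SE 0.21, limma FDR = 0.0836). In ABCs (Aged) Tbx21 was at 188.6, 179.1 and 165.0 FPKM. The summed level of the 18 ABC marker genes was 227 to 277 FPKM in young and 260.0 to 288 FPKM in aged FO B libraries, and 2884 to 3612 FPKM in ABCs. Pld4 alone averaged 180.1 FPKM in young and 189.2 FPKM in aged FO B libraries, so the sum says little of the other markers. The integrin genes of the ABC gate, Itgax for CD11c and Itgam for CD11b, were under 1 FPKM in all 6 FO B libraries, at 0 to 0.206 FPKM and 0.405 to 0.980 FPKM, and at 45.0 to 59.7 and 46.2 to 65.7 FPKM in ABCs. Of the 10 ABC markers tested between the FO B groups, 0 were called. At an unadjusted p under 0.05, 4 were higher and 1 was lower, against 6.96% and 5.87% of all genes. Their median was 0.30, against 0.0018 over all genes. The other 8 markers averaged under 1 FPKM and were not tested. Of these, Fgl2 was at 0.284, 0.160 and 0.445 FPKM in young and 1.17, 1.87 and 1.48 FPKM in aged libraries, on 28 and 147 reads. Nt5e was also higher without overlap, on 36 and 78 reads, and Cxcl10 was lower without overlap, on 19 and 13 reads. Fcrl5, an Fc receptor-like gene high in ABCs, was at 11.7, 12.9 and 13.6 FPKM in young and 16.5, 16.5 and 17.5 FPKM in aged libraries, again without overlap (log2 fold change 0.38, limma FDR = 0.124). In these bulk libraries, more cells of a type and more RNA per cell cannot be told apart, and the part of ABC transcripts in the difference of Cxcr3 was not tested.

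**Figure D2:**
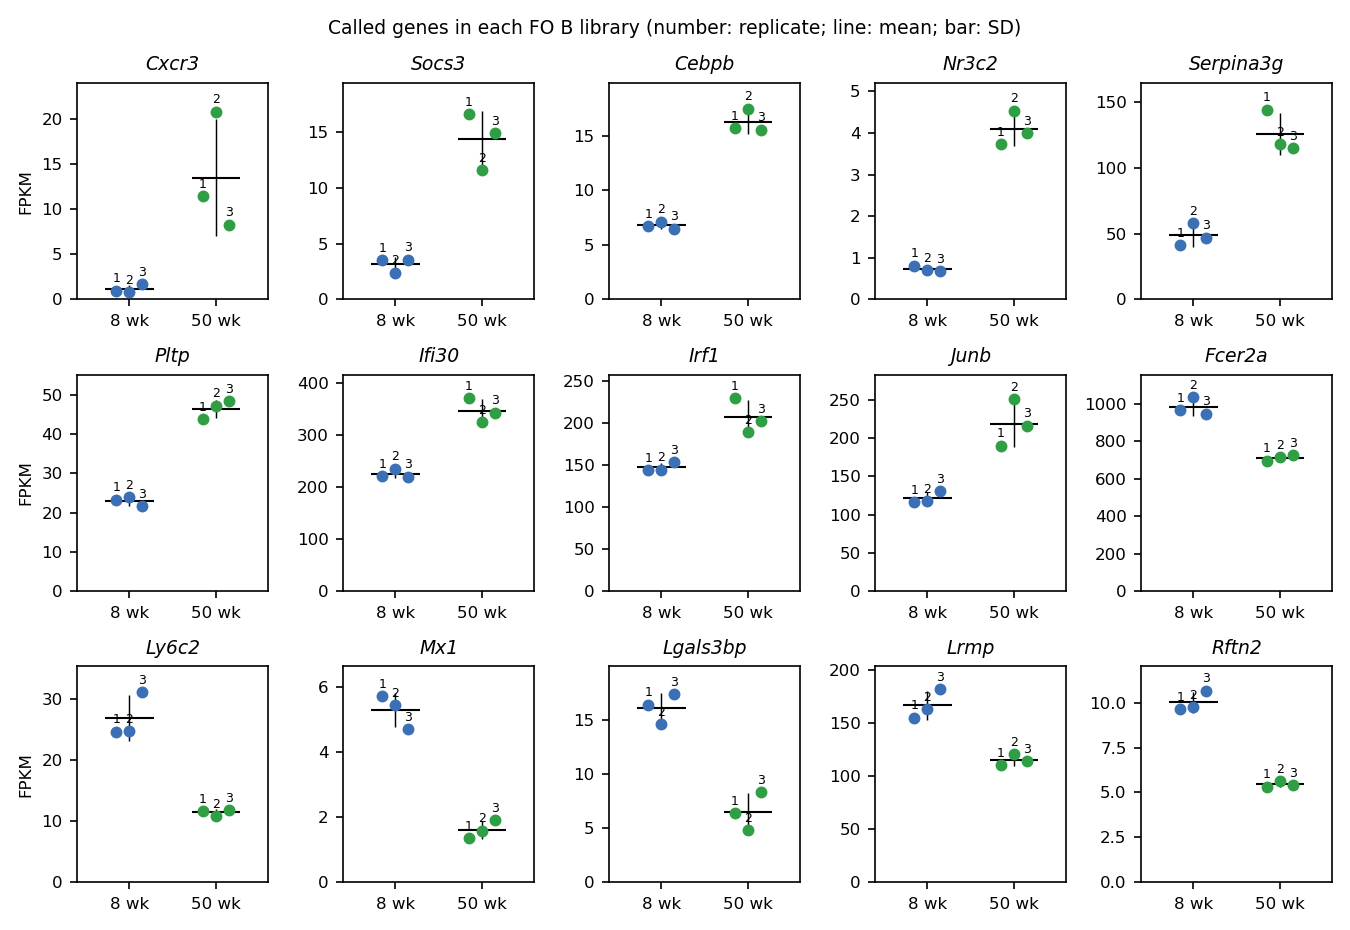
Each panel shows 1 called gene, with FPKM on a linear axis from 0 and age on the x axis. Points are libraries numbered by replicate, lines are group means and bars are SDs (n = 3), and in all 15 panels the points of the 2 ages do not overlap. For Cxcr3 the aged libraries run from 8.29 to 20.8 FPKM and the young ones from 0.814 to 1.70 FPKM.

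The cytokine signalling inhibitor Socs3 was among the genes that rose. Socs3, which inhibits cytokine receptors that signal through STAT3, was at 3.49, 2.40 and 3.56 FPKM in young and 16.6, 11.5 and 14.9 FPKM in aged libraries. All aged libraries were far above the young ones. Socs3 rose by 1.88 (SE 0.16, limma FDR = 0.00356), a ratio of means of 4.55, and was called under all 14 alternative settings. Of 28 SOCS, STAT and related signalling genes tested, Socs3 was called. At an unadjusted p under 0.05, 7 were higher and 2 lower, against 6.96% and 5.87% of all genes, and the median was 0.03. Socs1, which inhibits interferon receptors, was at 7.04, 6.11 and 6.19 FPKM in young and 16.9, 9.44 and 14.2 FPKM in aged libraries, without overlap (log2 fold change 0.93, limma FDR = 0.0966). Tyk2, a kinase of the type I interferon receptor, had the lowest value of the list at -0.28 (limma FDR = 0.201).

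Irf1, a transcription factor induced by interferons, was at 144.2, 144.6 and 153.6 FPKM in young and 230.3, 189.2 and 202.3 FPKM in aged libraries. The groups did not overlap, and Irf1 rose by 0.48 (SE 0.08, limma FDR = 0.0404), a call that was lost without any 1 of 5 libraries in turn, with an FDR of up to 0.223 without young replicate 1. Serpina3g, an intracellular inhibitor of lysosomal cathepsins, was at 41.1, 57.7 and 46.9 FPKM in young and 144.1, 117.8 and 115.0 FPKM in aged libraries. It rose by 1.36 (SE 0.13, limma FDR = 0.00472), and its neighbour in the family, Serpina3f, by 1.85 (limma FDR = 0.00872 and 0.0778 without young replicate 1). The Serpina3 genes are near-identical copies between which reads may be split, so their separate values are uncertain. Ifi30, the lysosomal thiol reductase that opens disulfide bonds of antigens for presentation, was at 221, 236 and 220.5 FPKM in young and 371.5, 325.0 and 343.7 FPKM in aged libraries and rose by 0.62 (SE 0.06, limma FDR = 0.00608, and 0.0664 without young replicate 1).

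Promoter sequences are shown for this group because 4 of the genes that rose, Irf1, Serpina3f, Serpina3g and Socs3, hold a match to the GAS motif. The motif was searched as TTCNNNGAA, which reads alike on both strands, from 250 bases before to 50 bases after each start in the RefSeq promoters of GRCm38.p6. A match was found in 8.37% of the 7755 tested genes with an entry, and in 9.6% of all 26742 genes with an entry. Serpina3f and Serpina3g, counted as separate genes here, are neighbouring copies. Among genes that rose and had an entry, 4 of 28 held a match, or 14.3%, so the share was near the background. The 250 bases before the start are shown for 3 of them, 5′ to 3′ on the strand of the gene and with the match in capitals, for Irf1 at chr11:53769764-53770013 (plus strand, match from base -90), Serpina3g at chr12:104235897-104236146 (plus strand, match from base -33) and Socs3 at chr11:117969367-117969616 (minus strand, match from base -154).
Irf1: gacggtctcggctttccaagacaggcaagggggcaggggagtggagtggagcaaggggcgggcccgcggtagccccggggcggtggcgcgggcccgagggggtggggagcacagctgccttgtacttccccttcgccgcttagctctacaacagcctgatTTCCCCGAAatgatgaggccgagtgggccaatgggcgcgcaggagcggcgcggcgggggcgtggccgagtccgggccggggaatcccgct
Serpina3g: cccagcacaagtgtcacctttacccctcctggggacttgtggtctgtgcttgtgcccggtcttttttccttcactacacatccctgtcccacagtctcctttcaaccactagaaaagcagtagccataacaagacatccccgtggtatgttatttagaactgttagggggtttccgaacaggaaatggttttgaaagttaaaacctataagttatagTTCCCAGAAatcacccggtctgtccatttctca
Socs3: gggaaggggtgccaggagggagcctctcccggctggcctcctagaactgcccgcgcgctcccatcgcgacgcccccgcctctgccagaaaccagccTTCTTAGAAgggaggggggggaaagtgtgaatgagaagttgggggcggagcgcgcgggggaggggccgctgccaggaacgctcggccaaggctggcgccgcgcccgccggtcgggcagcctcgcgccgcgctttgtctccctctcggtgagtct
A match describes the letters and is not a bound site. Cxcr3 held no match to this motif or to the ISRE core in the searched window, which says nothing of the factors that act on it.

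Interferon-stimulated genes were lower in FO B (Aged) for the most part. Of 40 members tested, 25 were lower at an unadjusted p under 0.05 (5.87% of all genes), 4 were higher (6.96% of all genes) and 2 fell at an FDR under 0.05. In 22 of the 40 all aged libraries were below all young ones, against 8.96% of all genes. The median log2 fold change of the list was -0.41, against 0.0018 over all genes, and ran from -0.52 to -0.30 over the alternatives.

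Mx1, a gene of the dynamin-like GTPase family, was at 5.72, 5.45 and 4.71 FPKM in young and 1.35, 1.59 and 1.91 FPKM in aged libraries. The groups were well apart, and Mx1 fell by 1.27 (SE 0.14, limma FDR = 0.00872, and 0.0673 without young replicate 1). Lgals3bp, a secreted galectin-binding glycoprotein, was at 16.4, 14.6 and 17.4 FPKM in young and 6.41, 4.803 and 8.33 FPKM in aged libraries and fell by 1.21 (SE 0.17, limma FDR = 0.023, and 0.146 without young replicate 1).

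In 23 of the 25 members that were lower, FO B (Aged) replicate 3 had the highest of the aged values, and in the other 2 it was replicate 1. Ifit3, an antiviral protein of the IFIT family, was at 16.4, 14.5 and 20.5 FPKM in young and 4.54, 4.98 and 11.5 FPKM in aged libraries (log2 fold change -1.27, limma FDR = 0.125). Usp18, which removes ISG15 from proteins and inhibits the type I interferon receptor, was at 24.8, 20.7 and 26.6 FPKM in young and 8.67, 8.56 and 17.1 FPKM in aged libraries (log2 fold change -1.07, limma FDR = 0.118). Ifi27l2a, the most abundant member of the list, was at 1093, 1069 and 1065 FPKM in young and 460.0, 432.8 and 807.8 FPKM in aged libraries (log2 fold change -0.98, limma FDR = 0.109). In each of these 3 genes the highest aged library was replicate 3, and it was still below all young libraries. The same held for Irf7, the amplifier of type I interferon production, only in part, with 52.2, 45.0 and 60.2 FPKM in young and 29.7, 18.4 and 47.0 FPKM in aged libraries, where replicate 3 overlapped the young range (log2 fold change -0.80, limma FDR = 0.278). Without FO B (Aged) replicate 3, 11 members of the list fell at an FDR under 0.05 in place of 2, and without young replicate 1 the count was 0, while 20 were lower at an unadjusted p under 0.05.

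Not all interferon-inducible genes were lower. Among the members higher at an unadjusted p under 0.05, Gbp2 and Gbp3 encode guanylate-binding proteins and Igtp an immunity-related GTPase. Gbp2 was at 8.77, 9.12 and 9.88 FPKM in young and 15.6, 13.2 and 11.8 FPKM in aged libraries, without overlap (log2 fold change 0.50, limma FDR = 0.125). Igtp was at 45.8, 43.8 and 37.9 FPKM in young and 62.8, 45.4 and 50.2 FPKM in aged libraries, where aged replicate 2 overlapped the young range (log2 fold change 0.30, limma FDR = 0.355). After these values were seen, the Gbp family was read as a whole. Of 8 members tested, 4 were higher and 0 lower at an unadjusted p under 0.05, against 6.96% and 5.87% of all genes, with a median of 0.47. Gbp7 was at 5.90, 6.53 and 6.16 FPKM in young and 9.99, 10.1 and 9.06 FPKM in aged libraries (log2 fold change 0.57, limma FDR = 0.0533). Gbp genes lie in clusters of similar copies, so reads may be split between them.

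**Figure D3:**
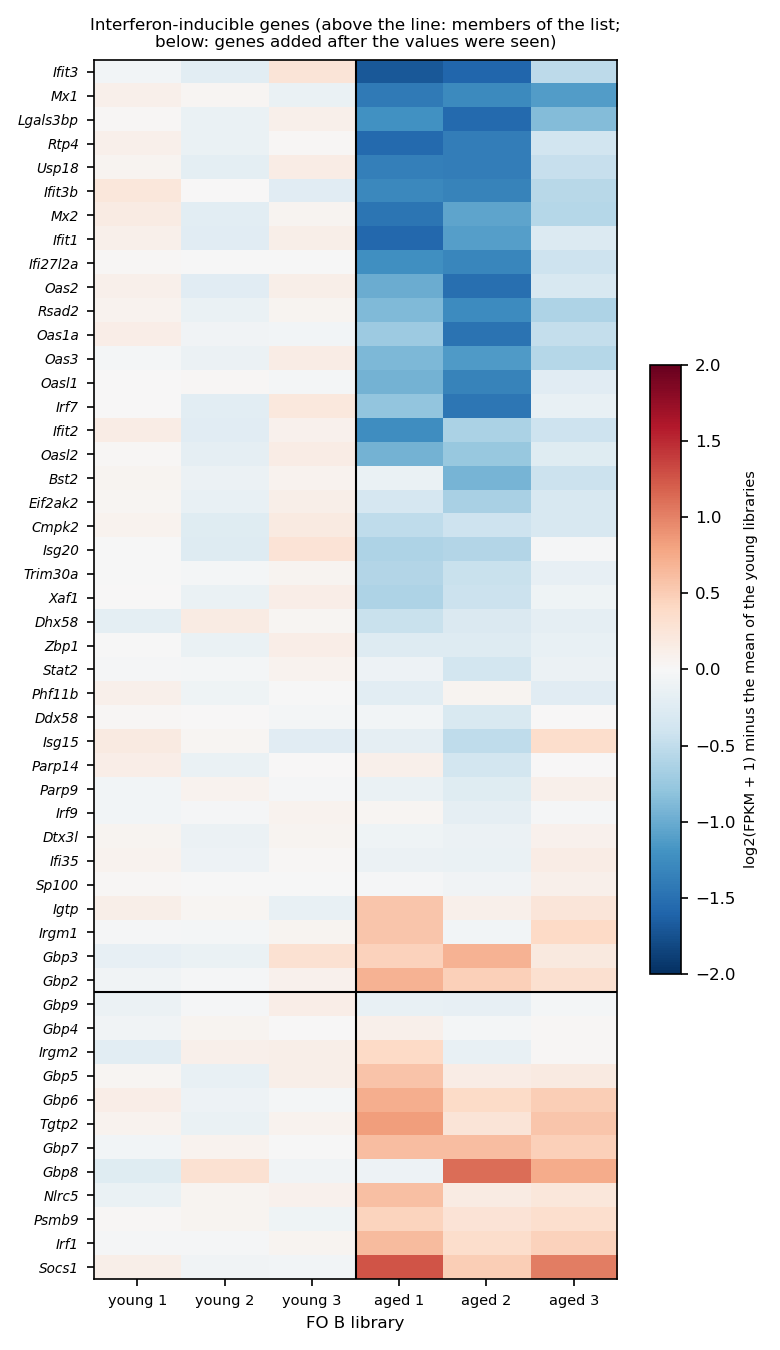
Rows above the line are members of the interferon-stimulated list, and rows below it are interferon-inducible genes added after the values were seen. The colour of the added rows is therefore no separate evidence. The list itself was chosen with earlier results of these data known. Columns are the 6 FO B libraries, and colour gives log2(FPKM + 1) minus the mean of the young libraries, blue for lower and red for higher. The block of antiviral genes at the top is blue in aged replicates 1 and 2 and paler in replicate 3, while Gbp2, Gbp3 and Igtp at the foot of the list and most added genes, such as Irf1 and Socs1, are red in the aged libraries.

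The ISRE core was searched as GAAANNGAAA on both strands in the same windows. It was present in 10 of the 17 genes with an entry among the 25 that were lower (58.8%) and in 7 of the 12 with an entry among the other 15 members (58.3%). It was present in 3.78% of tested genes and 4% of all genes with an entry, and in 0 of the 28 genes with an entry that rose. The other 15 members were 4 higher and 11 that passed in neither direction, so their share does not describe the higher members alone. The motif is shown for Ifit3 at chr19:34583279-34583528 (plus strand, matches from bases -156 and -122), Oas3 at chr5:120777660-120777909 (minus strand, match from base -75) and Rsad2 at chr12:26456453-26456702 (minus strand, match from base -120), which were lower, and for Gbp2 at chr3:142620413-142620662 (plus strand, match from base -59), which was higher, with matches in capitals.
Ifit3: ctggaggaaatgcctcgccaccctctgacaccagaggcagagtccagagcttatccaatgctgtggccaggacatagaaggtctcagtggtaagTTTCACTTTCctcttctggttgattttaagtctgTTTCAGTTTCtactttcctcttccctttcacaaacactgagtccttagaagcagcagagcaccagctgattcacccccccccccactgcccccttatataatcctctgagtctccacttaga
Oas3: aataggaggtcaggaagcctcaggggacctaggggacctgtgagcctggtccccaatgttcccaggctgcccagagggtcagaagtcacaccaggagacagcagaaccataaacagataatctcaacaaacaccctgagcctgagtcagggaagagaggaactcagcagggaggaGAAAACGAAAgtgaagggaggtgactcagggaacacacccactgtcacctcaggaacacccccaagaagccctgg
Rsad2: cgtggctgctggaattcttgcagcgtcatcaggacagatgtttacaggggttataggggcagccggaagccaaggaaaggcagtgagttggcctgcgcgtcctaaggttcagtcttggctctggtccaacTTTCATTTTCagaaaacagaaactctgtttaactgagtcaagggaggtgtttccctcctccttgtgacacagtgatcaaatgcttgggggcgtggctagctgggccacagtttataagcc
Gbp2: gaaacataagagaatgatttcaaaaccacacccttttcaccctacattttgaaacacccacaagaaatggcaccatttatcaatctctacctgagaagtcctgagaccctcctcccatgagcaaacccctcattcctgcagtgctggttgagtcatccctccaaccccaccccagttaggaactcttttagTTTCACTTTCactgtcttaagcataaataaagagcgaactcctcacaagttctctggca
Oas3, which makes the 2-5A signal for RNA decay, was at 4.36, 4.09 and 5.07 FPKM in young and 1.93, 1.501 and 2.72 FPKM in aged libraries (log2 fold change -0.87, limma FDR = 0.0966). Rsad2, which encodes viperin, was at 3.08, 2.55 and 3.04 FPKM in young and 1.1, 0.622 and 1.54 FPKM in aged libraries (log2 fold change -0.92, limma FDR = 0.109). Neither gene overlapped between the ages.

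Antigen presentation genes were read by class. Of 16 MHC class I presentation genes, 7 were higher and 0 lower at an unadjusted p under 0.05, 0 were called, and all 16 had a positive difference, with a median of 0.15. The share of all genes higher at that p was 6.96%, and the 7 became 3 without aged replicate 1 and 4 without young replicate 1 or replicate 3. Psmb9, an immunoproteasome subunit, was at 331, 339 and 305 FPKM in young and 441, 391 and 411 FPKM in aged libraries, without overlap (log2 fold change 0.35, limma FDR = 0.0816). B2m, the light chain of class I molecules, was at 4116, 4116 and 3913 FPKM in young and 4560, 4743 and 4742 FPKM in aged libraries (log2 fold change 0.21, limma FDR = 0.173). Of 11 class II presentation genes, 0 passed either threshold and the median was -0.05.

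Immediate-early genes, which are induced within minutes by stimulation and also by cell handling, were higher in FO B (Aged). Of 23 tested, 16 were higher and 0 lower at an unadjusted p under 0.05, against 6.96% and 5.87% of all genes. At an FDR under 0.05, 2 rose, Junb and Ier2, and the median was 0.28. Junb, a subunit of the AP-1 transcription factor, was at 116.1, 117.8 and 131.0 FPKM in young and 190.3, 251.0 and 216.6 FPKM in aged libraries and rose by 0.84 (SE 0.10, limma FDR = 0.0118, and 0.0937 without young replicate 1). Ier2 rose by 0.41 (SE 0.07, limma FDR = 0.0494), a call that was lost without any 1 of the 6 libraries, with an FDR of up to 0.200. Fos, a partner of Jun proteins in AP-1, was at 111.3, 77.6 and 70.5 FPKM in young and 97.7, 183.5 and 180.4 FPKM in aged libraries, and aged replicate 1 lay within the young range (log2 fold change 0.80, limma FDR = 0.237). Dusp1, a phosphatase of MAP kinases, had the same order, with 46.2, 41.4 and 31.6 FPKM in young and 44.4, 93.4 and 76.2 FPKM in aged libraries (log2 fold change 0.78, limma FDR = 0.242). The activation markers Nr4a1 and Cd69 differed by 0.11 (limma FDR = 0.675) and 0.18 (limma FDR = 0.494). In ABCs (Aged) Fos was at 444, 722 and 810 FPKM, with replicate 1 again the lowest. The part of cell handling in these values was not tested.

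Heat shock genes differed between the aged libraries. Of 10 tested, 7 were higher and 0 lower at an unadjusted p under 0.05, against 6.96% and 5.87% of all genes. Of these lists' members 0 were called, and the median was 0.37. Hspa8, the constitutive HSP70 chaperone, was at 783, 589 and 751 FPKM in young and 1655, 962 and 1541 FPKM in aged libraries, without overlap (log2 fold change 0.94, limma FDR = 0.109). Hsph1, its nucleotide exchange factor, was at 21.7, 18.8 and 19.1 FPKM in young and 51.4, 20.3 and 50.3 FPKM in aged libraries, where aged replicate 2 overlapped the young range (log2 fold change 0.89, limma FDR = 0.271). Replicate 2 was the lowest in each of the 3 groups, ABCs included, for Hspa8, Hsph1 and Dnaja1. Without FO B (Aged) replicate 2, 9 of the 10 were higher at an unadjusted p under 0.05 and 4 rose at an FDR under 0.05, whereas without aged replicate 1 or 3, 4 were higher at an unadjusted p under 0.05 and 0 were called.

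**Figure D4:**
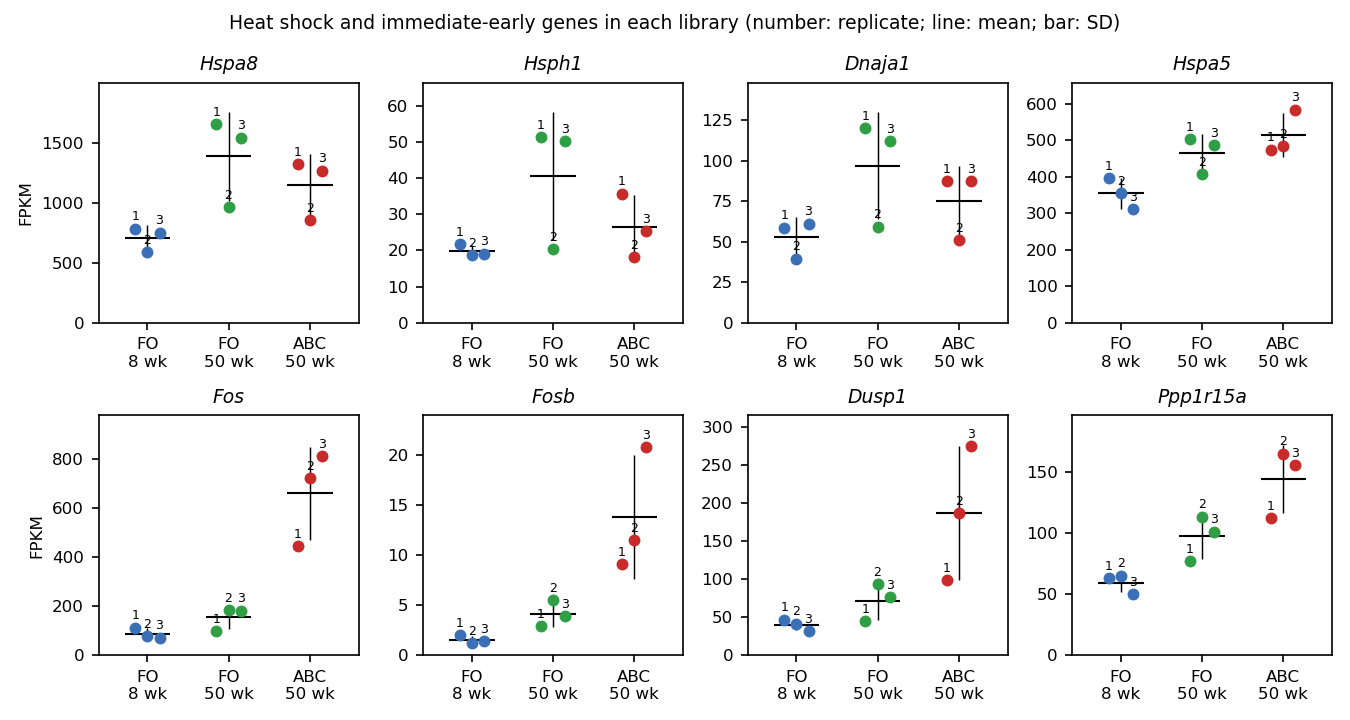
Panels show 4 heat shock genes and 4 immediate-early genes, with FPKM on a linear axis from 0 and the 3 groups on the x axis. Points are libraries numbered by replicate, lines are means and bars SDs (n = 3); in aged FO B cells replicate 2 is the lowest for Hspa8, at 962 FPKM, and replicate 1 is the lowest for Fos, at 97.7 FPKM.

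Sterol genes were lower in part. Of 16 genes of sterol synthesis and uptake, 7 were lower and 0 higher at an unadjusted p under 0.05, against 5.87% and 6.96% of all genes. In this list 0 were called and the median was -0.25. Hmgcs1, an early enzyme of sterol synthesis, was at 21.35, 23.31 and 24.98 FPKM in young and 16.91, 14.54 and 20.89 FPKM in aged libraries, without overlap (log2 fold change -0.40, limma FDR = 0.232). Insig1, the sterol-regulated brake on the pathway, was at 19.3, 25.3 and 23.4 FPKM in young and 17.0, 15.8 and 16.1 FPKM in aged libraries (log2 fold change -0.44, limma FDR = 0.131). The count lower at an unadjusted p under 0.05 was 12 without aged replicate 1, and 4 without young replicate 2 or replicate 3.

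Transcription factors and receptors outside these lists were also called. Nr3c2, the mineralocorticoid receptor, was at 0.812, 0.704 and 0.671 FPKM in young and 3.74, 4.53 and 3.999 FPKM in aged libraries. The groups were far apart on 75 and 430 reads, and Nr3c2 rose by 1.56 (SE 0.14, limma FDR = 0.00356), a ratio of means of 5.61. Cebpb, a leucine zipper transcription factor of inflammatory genes, was at 6.72, 7.14 and 6.501 FPKM in young and 15.7, 17.5 and 15.6 FPKM in aged libraries and rose by 1.15 (SE 0.09, limma FDR = 0.002). Id2, an inhibitor of E proteins, which maintain B cell identity, was at 5.95, 5.69 and 7.69 FPKM in young and 11.4, 12.6 and 12.95 FPKM in aged libraries and rose by 0.85 (SE 0.12, limma FDR = 0.0287, and 0.168 without young replicate 1).

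Among receptors, Lilrb4a, an inhibitory immunoglobulin-like receptor with a close paralog, was at 2.36, 1.77 and 1.59 FPKM in young and 6.79, 7.71 and 5.59 FPKM in aged libraries and rose by 1.40 (SE 0.16, limma FDR = 0.00872, and 0.0572 without young replicate 2). In ABCs (Aged) it was at 146.2, 148.8 and 306.7 FPKM. Ffar2, a receptor for short-chain fatty acids, rose by 1.17 (limma FDR = 0.025) and the orphan receptor Gpr171 by 0.91 (limma FDR = 0.0136), with FDRs of up to 0.110 and 0.0681 without young replicate 1. Gpr171 was at 67.3, 53.4 and 66.1 FPKM in young, 132.2, 103.3 and 119.1 FPKM in aged FO B cells and 59.0, 61.2 and 31.0 FPKM in ABCs. Rgmb, a co-receptor for bone morphogenetic proteins, rose by 1.40 (SE 0.17, limma FDR = 0.0119, and 0.0664 without young replicate 1). Cebpb, Lilrb4a and Ffar2 are also expressed in myeloid cells. The neutrophil gene S100a9 was at 0, 0.741 and 0 FPKM in young and 2.40, 0.987 and 6.16 FPKM in aged libraries (limma FDR = 0.180). Its partner S100a8 overlapped between the ages, at 0, 6.39 and 0 FPKM in young and 0.691, 0 and 15.2 FPKM in aged libraries (limma FDR = 0.865). Cxcr2, the other neutrophil marker tested, differed by 0.06 (limma FDR = 0.91). Of the 35 genes that rose, 5 had the same order of aged libraries as S100a9. These were Alox5ap, at 5.68, 5.30 and 7.30 FPKM, Wfdc17, at 109.9, 84.1 and 126.6 FPKM, Dnajc3, Ier2 and Stard10. Another 15, with Cebpb, Lilrb4a and Ffar2 among them, had their lowest aged value where S100a9 was highest. Few orders of 3 libraries are possible and the share over all genes was not read, so no conclusion is drawn from these counts. The part of myeloid cells in the genes that rose was not tested.

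Genes of lipid handling and other functions completed the higher group. Pltp, the phospholipid transfer protein of plasma, was at 23.3, 23.9 and 21.6 FPKM in young and 43.9, 47.2 and 48.4 FPKM in aged libraries and rose by 0.99 (SE 0.07, limma FDR = 0.00146). Alox5ap, which presents arachidonic acid for leukotriene synthesis, rose by 1.03 (limma FDR = 0.025, and 0.132 without young replicate 1) and the lipid transfer gene Stard10 by 0.77 (limma FDR = 0.00872, and 0.0664 without young replicate 1). Erdr1 was at 115.2, 139.3 and 118.9 FPKM in young and 465.7, 345.5 and 400.2 FPKM in aged libraries and rose by 1.68 (SE 0.11, limma FDR = 0.00142). It has no entry in GENCODE M21 and is a transcribed pseudogene of the X chromosome in RefSeq. Clps, which encodes pancreatic colipase, had 0 reads in the young and 16 reads in the aged libraries together, so it was at least 1.75-fold higher against a floor of 3 reads per library. AW112010, a transcript induced by interferon and bacterial products, was at 148.7, 164.1 and 157.8 FPKM in young and 246.5, 281.2 and 245.5 FPKM in aged libraries and rose by 0.71 (SE 0.07, limma FDR = 0.00472).

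Gimap4, a lymphocyte GTPase and the most abundant gene that rose, was at 476, 483 and 489 FPKM in young and 626, 633 and 592.5 FPKM in aged libraries, a rise of 0.35 (SE 0.05, limma FDR = 0.0234, and 0.159 without young replicate 1). The remaining genes that rose were Gm6377, which overlaps Sh3bgrl, 1700028I16Rik, Wfdc17, Hepacam2, A530032D15Rik, Tbc1d10b, Glipr2, Pdlim1, the calcium-binding protein gene S100a1, C1galt1 of O-glycan synthesis, the endoplasmic reticulum co-chaperone gene Dnajc3 and the kinase gene Lrrk2, by 0.39 to 1.25, and Snora75, a small nucleolar RNA gene with 0 reads in the young and 6 in the aged libraries together, for which no fold change is given.

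On the lower side, Fcer2a, which encodes the low-affinity IgE receptor CD23, was at 967, 1036 and 948 FPKM in young and 697, 716 and 728 FPKM in aged libraries. The groups were apart, and Fcer2a fell by 0.46 (SE 0.05, limma FDR = 0.0109, and 0.0785 without young replicate 1). CD23 was a marker of the sort, so the level concerns cells that were all gated as positive for it, and in ABCs, gated as negative, Fcer2a was at 4.15, 6.95 and 0.464 FPKM. Spn, which encodes CD43 of the negative gate, was at 4.96, 4.71 and 4.99 FPKM in young and 2.75, 3.09 and 3.32 FPKM in aged libraries (log2 fold change -0.54, limma FDR = 0.109).

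Ly6c2, a surface protein anchored by glycosylphosphatidylinositol, was at 24.7, 24.8 and 31.2 FPKM in young and 11.7, 10.8 and 11.9 FPKM in aged libraries and fell by 1.15 (SE 0.10, limma FDR = 0.00356). Its near-identical neighbour Ly6c1 makes the split of reads uncertain. Rftn2, a lipid raft protein, was at 9.63, 9.74 and 10.7 FPKM in young and 5.32, 5.63 and 5.41 FPKM in aged libraries and fell by 0.77 (SE 0.09, limma FDR = 0.0119, and 0.0785 without young replicate 1). Glb1, the lysosomal beta-galactosidase, was at 31.0, 28.4 and 29.0 FPKM in young and 22.1, 21.7 and 21.3 FPKM in aged libraries and fell by 0.42 (SE 0.07, limma FDR = 0.0404), a call that was lost without any 1 of the 6 libraries, with an FDR of up to 0.210. Fbxo36, an F-box gene that overlaps Trip12, had 39 reads in the young and 4 in the aged libraries together, a ratio of 9.90 with an exact 95% counting interval of 3.57 to 38.2 (limma FDR = 0.0112, and 0.0664 without young replicate 1). Fam229b had 26 and 5 reads, a ratio of 5.28 (1.996 to 17.6), and its call (limma FDR = 0.0404) was lost without any 1 of the 6 libraries, with an FDR of up to 0.174. These intervals cover counting error alone. The other genes that fell, AA413626, Sufu, an inhibitor of Hedgehog signalling, Lrmp and the adaptor gene Grap, fell by 0.37 to 1.05.

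Lists of B cell functions were mostly near the level of all genes, of which 6.96% were higher and 5.87% lower at an unadjusted p under 0.05. Of 25 B cell receptor signalling genes, 4 were higher and 2 lower at an unadjusted p under 0.05, with a median of 0.01. The inhibitory Fc receptor gene Fcgr2b was the highest of them, at 121.3, 129.3 and 120.3 FPKM in young and 181.7, 149.2 and 189.7 FPKM in aged libraries (log2 fold change 0.48, limma FDR = 0.0858). Of 19 Toll-like receptor, adaptor and related genes, 2 were lower and 0 higher. Tlr7, the sensor of single-stranded RNA, was the lowest of these, at 14.5, 12.6 and 12.2 FPKM in young and 6.86, 7.49 and 10.5 FPKM in aged libraries (log2 fold change -0.62, limma FDR = 0.141). Plasma cell genes were mixed, with 2 of 8 higher and 4 lower at an unadjusted p under 0.05, and 0 were higher without young replicate 3 or aged replicate 3 and 1 without young replicate 1, aged replicate 1 or aged replicate 2. They included Jchain of polymeric antibodies at 2.08, 3.19 and 2.51 against 2.73, 6.63 and 8.44 FPKM (log2 fold change 0.86, limma FDR = 0.303) and the surface marker Sdc1 at 6.99, 4.24 and 6.64 against 2.89, 3.76 and 2.69 FPKM (log2 fold change -0.74, limma FDR = 0.156).

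Housekeeping and senescence-related lists showed small values. Over all genes, 6.96% were higher and 5.87% lower at an unadjusted p under 0.05. Of 48 ribosomal protein genes, 0 passed an unadjusted p under 0.05 and the median was 0.01. Of 38 respiratory chain genes, 1 was higher and 2 were lower, with a median of 0.00, and of 27 proteasome genes, 2 were higher and 0 lower. Of 12 inhibitors of cyclin-dependent kinases and p53 targets, 0 passed an unadjusted p under 0.05 and the median was 0.09, with Cdkn2a, which encodes p16, at 0 FPKM in all 6 libraries. Of 20 cell cycle genes, 3 were higher and 0 lower, with a median of 0.13, and of 7 tested of 19 cytokine genes linked to ageing, 1 was lower and 0 higher.

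**Figure D5:**
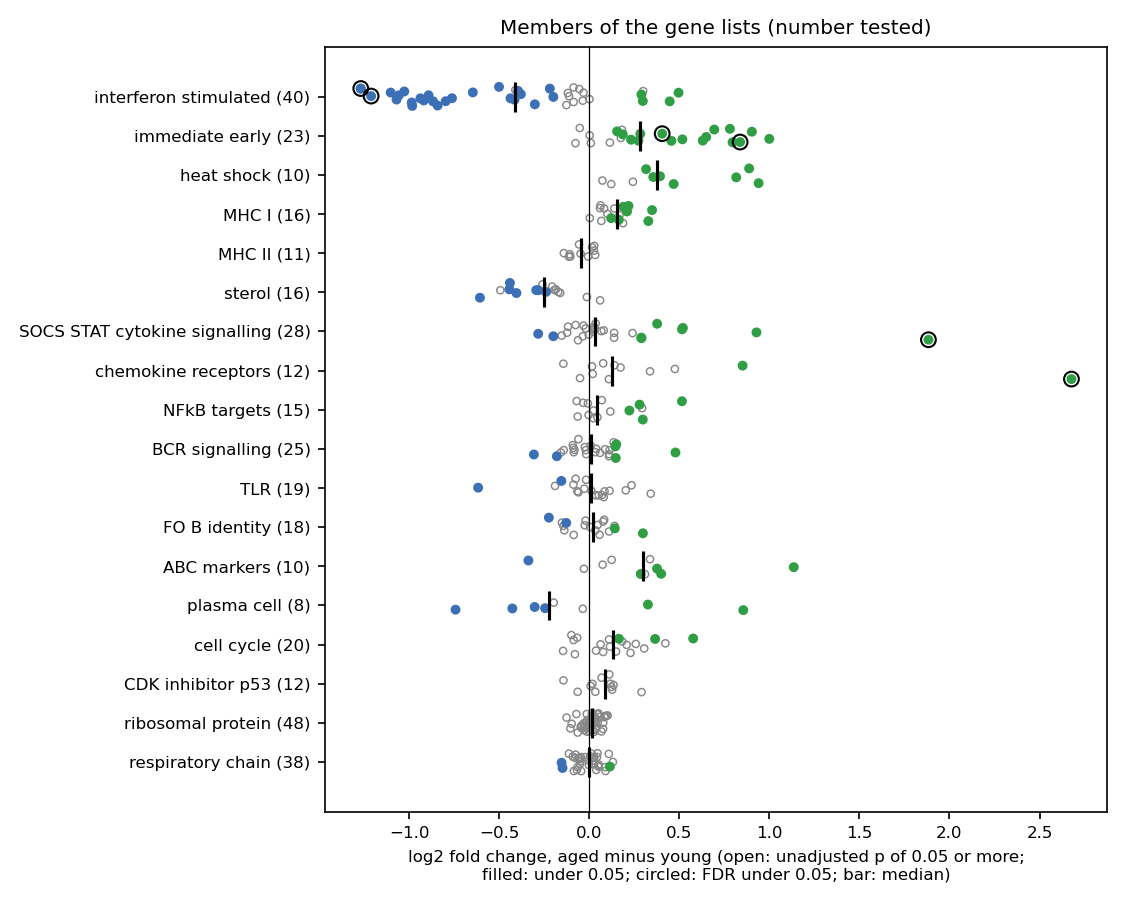
Each row is a gene list with the number of members tested, and each point a member at its log2 fold change, aged minus young. Filled points have an unadjusted p under 0.05, circled points an FDR under 0.05 and bars mark medians, which are -0.41 for interferon-stimulated, 0.28 for immediate-early, 0.37 for heat shock and -0.25 for sterol genes and near 0 for ribosomal protein genes.

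The calls rested on the number of libraries. With each library left out in turn, 11 of the 47 genes stayed called throughout, namely AW112010, Cebpb, Clps, Erdr1, Gm6377, Ly6c2, Nr3c2, Pltp, Serpina3g, Snora75 and Socs3, and 36 were lost without at least 1 library. Of the 11, Clps and Snora75 rest on only 16 and 6 reads in the aged libraries together and 0 in the young. The preparation did not mark strand and 21 of the called genes overlap another annotated gene, such as Cebpb with Tmem189, Irf1 with Gm17334, Junb with Prdx2 and Pltp with Ctsa. Overlap was read between the start and end of each gene, introns included. Reads in exons that both partners share cannot be told apart, and whether exons are shared was not read.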

How the data were processed

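RNA-seq of 9 libraries of sorted splenic B cells was deposited, and the 6 FO B libraries were analysed here. Groups and replicate numbers were taken from the labels. The authors made cDNA with the SMART-Seq HT kit, read 101 bases from 1 end, aligned to mm10 and deposited 1 FPKM value per gene symbol and library. The submitters' processing notes name TopHat2 2.1.1, Bowtie2 2.2.8, SAMtools 0.1.18 and Cuffdiff 2.2.1, and the gene annotation is not given in the sources used here.

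Genes averaging 1 FPKM or more in the 6 libraries were fitted as log2(FPKM + 1) with limma 3.58.1 in R 4.3.3 (lmFit, eBayes with a trend, no block) and adjusted by Benjamini-Hochberg. An exact two-sided permutation test of 3 against 3 libraries has 20 orders and a smallest p of 0.1, which every called gene reached, so it cannot pass 0.05. The fit was tested on simulated data with known changes. Whole reads were recovered for 8851 of 17513 genes as multiples of a common step within 0.02 of a read, and served for depth, floors of 3 reads and counting intervals, and for no count model. Positions came from GENCODE M21 on GRCm38, with an entry for 23310 symbols. Promoters came from RefSeq on GRCm38.p6, which has no entry for Mx1 and Usp18 here. Tables and figures were made in Python 3.11.15 with pandas 2.3.3, numpy 2.4.6 and matplotlib 3.10.9.

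Named genes were called genes, among them up to 15 of the largest changes in each direction, and members of the lists, with the lowest p or the highest level as examples. Other genes with values were chosen after these were seen. The members and the gene lists were chosen with earlier results of these data known. The replicate numbers were not taken to pair the libraries. Values of some genes are not reported here. The alternatives were leaving out each library, a replicate block, eBayes with no trend, a pseudocount of 0.1, quantile, TPM or upper-quartile scaling, and filters of 0 or 5 FPKM.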

Additional observations from a re-analysis of the deposited data

How the results depend on the processing

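The 47 called genes kept their direction under the 14 alternatives, where 12 of them were not tested with a mean of at least 5 FPKM. Medians near 0 changed sign, with ranges of -0.02 to 0.03 for B lineage, -0.01 to 0.04 for B cell receptor signalling, -0.04 to 0.06 for ribosomal protein and -0.04 to 0.01 for respiratory chain genes. Against 35 genes higher and 12 lower, no filter on low values gave 13 higher and 2 lower among 18096 genes, and eBayes without a trend gave 22 higher and 8 lower. Leaving out 1 library gave 13 to 40 genes higher and 1 to 24 lower, the lowest counts of both without young replicate 1. In total 14 genes were called without young replicate 1, 18 without aged replicate 1, 22 without young replicate 2, and 61 without aged replicate 2 or replicate 3. The cause was not tested. The higher and lower counts were within 1.5 times of the main ones with a pseudocount of 0.1 (36 and 12), a mean of at least 5 FPKM (26 and 8), quantile normalization (32 and 13), scaling to TPM (28 and 15) and scaling to the upper quartile (34 and 12). The fit with a replicate block gave 28 higher and 9 lower, and the correlations of same-numbered libraries' deviations were -0.05, 0.14 and -0.10, so the numbers were not taken as a pairing, although some heat shock genes were lowest in replicate 2 of every group. With the block 2 heat shock genes were called, against 0 without it. Among single genes, the 9 called under every alternative were AW112010, Cebpb, Erdr1, Gm6377, Ly6c2, Pltp, Serpina3g, Snora75 and Socs3. Of these, Snora75 rests on only 6 reads in the aged libraries together. At 3 libraries a group and 7640000 to 9290000 reads each, a missed threshold does not show equal levels.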
